A study of Homo sapiens with 14 samples.

Results

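AP-1 and immediate early genes were followed in the colorectal cancer cell line SW620 during long time clone culture (LTC), in which sparsely seeded cells grew into colonies for up to 15 days. The 10 members were JUN, JUNB, JUND, FOS, FOSB, FOSL1, FOSL2, ATF3, EGR1 and IER3, taken by gene symbol, and all 10 were found among the 36601 genes of the single-cell matrices and the 60624 genes of the bulk tables. The single-cell part held 8 libraries, 1 for each line on days 6, 9, 12 and 15. The lines were SW620-TET2CD, which overexpresses the catalytic domain of the DNA demethylating enzyme TET2, and its control, which the labels call SW620 and the study describes as carrying a FLAG vector. The bulk part held 6 libraries, namely SW480 and SW620 harvested whole on day 6, and cells from inside and outside the colonies of SW620 and SW620-TET2CD on day 15. Whether the bulk SW620 cells carried the vector is not stated in their labels. SW480 and SW620 are lines from a primary colorectal tumour and a metastasis of the same patient. No condition had a replicate library, so each test below takes days or lines as replicates, and the spread from one culture to another within a condition stays unmeasured. Each single-cell library came from colonies dissociated for that library, so the handling of a library and its day in culture cannot be told apart.

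AP-1 is a transcription factor made of pairs of basic leucine zipper proteins from the JUN, FOS and ATF families, which bind the sequence TGANTCA or the related cyclic AMP response element (CRE). JUN proteins can pair with each other or with FOS proteins, whereas FOS proteins need a JUN partner. Immediate early genes such as FOS and EGR1 are transcribed within minutes of a growth factor, stress or mechanical stimulus, without new protein synthesis, and their mRNAs are short-lived. In colorectal cancer cells the RAS and MAP kinase pathway is a well known input to these genes.

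Promoter sequences are shown first, as a description, and a link between them and the levels in the libraries was not tested. The RefSeq promoter table (GRCh38.p14) matched 8 of the 10 members, and FOSL1 and IER3 were not matched. Each window ran from 250 bases before to 50 bases after a start that RefSeq gives, which need not be the outermost start of the gene. ATF3 had 2 windows, the second of them at a start inside the gene, so there were 9 windows in all, and both strands were searched for 6 motifs. The last 200 bases before the start are printed for 4 promoters, chosen because they held a CArG box, a full CRE or the same pair of motifs, with the matched motifs in capitals. EGR1 lies at chr5:138465279-138465478 (plus strand), FOS at chr14:75278628-75278827 (plus strand), FOSB at chr19:45467796-45467995 (plus strand) and JUND at chr19:18281623-18281822 (minus strand).
EGR1: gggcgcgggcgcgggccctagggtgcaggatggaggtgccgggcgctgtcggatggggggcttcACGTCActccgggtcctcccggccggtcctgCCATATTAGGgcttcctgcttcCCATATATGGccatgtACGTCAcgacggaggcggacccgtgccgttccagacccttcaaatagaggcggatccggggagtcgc
FOS: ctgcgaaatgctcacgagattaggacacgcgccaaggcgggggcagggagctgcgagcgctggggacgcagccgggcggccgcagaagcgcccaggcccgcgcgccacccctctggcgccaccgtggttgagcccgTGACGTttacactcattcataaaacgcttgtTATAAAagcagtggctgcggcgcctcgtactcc
FOSB: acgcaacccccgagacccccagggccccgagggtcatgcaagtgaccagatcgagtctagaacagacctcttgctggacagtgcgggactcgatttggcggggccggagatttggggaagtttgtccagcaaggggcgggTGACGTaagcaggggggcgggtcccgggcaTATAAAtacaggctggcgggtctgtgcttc
JUND: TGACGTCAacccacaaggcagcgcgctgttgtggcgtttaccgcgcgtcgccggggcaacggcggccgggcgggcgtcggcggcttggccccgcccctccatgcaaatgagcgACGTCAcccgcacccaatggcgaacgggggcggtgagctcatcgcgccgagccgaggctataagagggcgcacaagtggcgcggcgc
The EGR1 promoter held 2 CArG boxes, the element bound by serum response factor, at -105 to -96 and -83 to -74 relative to the start, and none of the other windows held one. A CArG box stood in 1.30% of the 34796 promoters searched. FOS and FOSB were alike in holding TGACGT, the core of the CRE, at -64 and -60, followed by TATAAA at -33 and -30. JUND held the full CRE TGACGTCA at -200 to -193, which also contains the core on both strands, and 1.84% of all promoters held it. The core TGACGT stood in 5 of the 9 windows (EGR1, FOS, FOSB, FOSL2 and JUND) against 7.97% of all promoters, and TATAAA in 4 (FOS, FOSB, JUNB and the second window of ATF3) against 11.6%. Of the AP-1 element TGANTCA there was 1 match, in the FOSL2 window, against 7.73% of all promoters, and the EGR element GCGTGGGCG, present in 0.793%, had none. These matches describe letters in a window, and binding was not measured. Elements farther than 250 bases before a start, and variants of these motifs, were outside the search. A window without a match is therefore not a promoter shown to lack the element.

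The single-cell libraries held 67056 barcodes, of which 48282 were kept as cells (200 to 4500 genes, 1000 to 20000 UMIs, at most 10% mitochondrial UMIs), with 48186195 to 74185723 UMIs per library and a median of 6640 to 13479 UMIs per cell. Values are CPM, the UMIs of a gene summed over the kept cells and scaled to the same total in every library, and 3 UMIs corresponded to 0.0404 to 0.0623 CPM. EPCAM, KRT8 and KRT18, which mark epithelial cells, were abundant in every library. Of the same list, KRT19 was at 1314 to 2439 CPM and VIL1 at 82.9 to 123 CPM. CDH1 and CDX2 were scarcer, at 24.7 to 119 and 8.99 to 20.4 CPM. Of the 9 markers of other cell types, PTPRC and CD3E of leukocytes, COL1A2 of fibroblasts and CDH5 of endothelium had 0 to 3 UMIs per library, while COL1A1 had 69 to 171 and PECAM1 9 to 94. The summed leukocyte markers ran from 1.20 to 1.91 CPM on days 6 and 9 and from 3.63 to 36.9 CPM on days 12 and 15, nearly all of it CD68, which is also expressed outside leukocytes. The summed fibroblast markers ran from 1.30 to 1.63 CPM on days 6 and 9 and from 2.18 to 3.8 CPM on days 12 and 15, and those of endothelium from 0.379 to 1.39 CPM over all days. The part of these low signals in the changes over days was not tested. Pairs of libraries shared 1 to 23 barcodes of kept cells.

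The JUN genes rose together in both lines. JUN (ENSG00000177606, chromosome 1, 58776845 to 58784048, minus strand), the founding AP-1 subunit and a strong transactivator, was at 456, 582, 1070.2 and 779 CPM in SW620 on days 6, 9, 12 and 15, and at 411, 593, 904 and 711 CPM in SW620-TET2CD. All 4 libraries of days 12 and 15 lay above all 4 of days 6 and 9. JUNB (ENSG00000171223, chromosome 19, 12791486 to 12793315, plus strand), a JUN relative with weaker transactivation, was at 40.2, 44.4, 126 and 109.5 CPM in SW620 and at 38.3, 54.7, 95.1 and 71.7 CPM in SW620-TET2CD. JUND (ENSG00000130522, chromosome 19, 18279694 to 18281622, minus strand), the member known for the most constant expression, was at 183, 267, 420.4 and 392 CPM in SW620 and at 175, 247, 391 and 351 CPM in SW620-TET2CD. For JUNB and JUND too, the days 12 and 15 did not overlap with the days 6 and 9, and the highest day of the family was day 12 in both lines. The separation was not particular to the JUN genes. It was also seen for FOSL2, for IER3 (at most 634 CPM early and at least 675 late) and narrowly for ATF3 (12.9 and 13.0 CPM). How many of all genes were separated in this way was not counted. In the test of late against early days below, 57.7% of 16993 genes passed.

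The FOS genes differed from one another in their order over the days. FOS (ENSG00000170345, chromosome 14, 75278826 to 75282230, plus strand), the classical immediate early partner of JUN, was at 335, 269, 818 and 316 CPM in SW620 on days 6, 9, 12 and 15, and at 272, 373, 656 and 333 CPM in SW620-TET2CD. Day 12 stood alone in both lines, and the day 15 values lay within the range of days 6 and 9. FOSB (ENSG00000125740, chromosome 19, 45467995 to 45475179, plus strand), a close relative of FOS, was at 129, 131, 299 and 172 CPM in SW620 and at 117, 197, 227 and 229 CPM in SW620-TET2CD, so that a single day 12 peak was seen in SW620 and a plateau from day 9 in SW620-TET2CD. FOSL2 (ENSG00000075426, chromosome 2, 28392448 to 28417317, plus strand), which encodes FRA-2, was the scarcest member, at 5.60, 5.61, 9.44 and 9.80 CPM in SW620 and at 4.72, 4.64, 9.48 and 8.31 CPM in SW620-TET2CD. It followed the JUN genes, with days 12 and 15 above days 6 and 9 in both lines. FOSL1 (ENSG00000175592, chromosome 11, 65892049 to 65900573, minus strand), which encodes FRA-1 and is often linked to invasive carcinoma cells, was at 42.3, 37.0, 31.5 and 57.4 CPM in SW620 and 50.2, 37.1, 26 and 44.3 CPM in SW620-TET2CD. Its lowest value was on day 12 in both lines, the day on which FOS was highest, and its highest was on day 15 in SW620 and on day 6 in SW620-TET2CD.

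The remaining members were ATF3, EGR1 and IER3. ATF3 (ENSG00000162772, chromosome 1, 212565334 to 212620777, plus strand), a stress-induced leucine zipper factor that pairs with JUN proteins and often represses, was at 11.4, 8.58, 39.1 and 13.0 CPM in SW620 and at 10.2, 12.9, 29.9 and 15.1 CPM in SW620-TET2CD. EGR1 (ENSG00000120738, chromosome 5, 138465479 to 138469303, plus strand), a zinc finger factor induced beside FOS, was at 161, 169, 297 and 165 CPM in SW620 and at 133, 214, 256 and 192 CPM in SW620-TET2CD. Both were highest on day 12 in both lines. IER3 (ENSG00000137331, chromosome 6, 30743199 to 30744548, minus strand), an early response gene that modulates ERK signalling and cell survival, was at 462, 634, 899.6 and 1121 CPM in SW620 and at 442, 420.3, 675 and 740.5 CPM in SW620-TET2CD. Its highest day was day 15 in both lines.

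**Figure D1:**
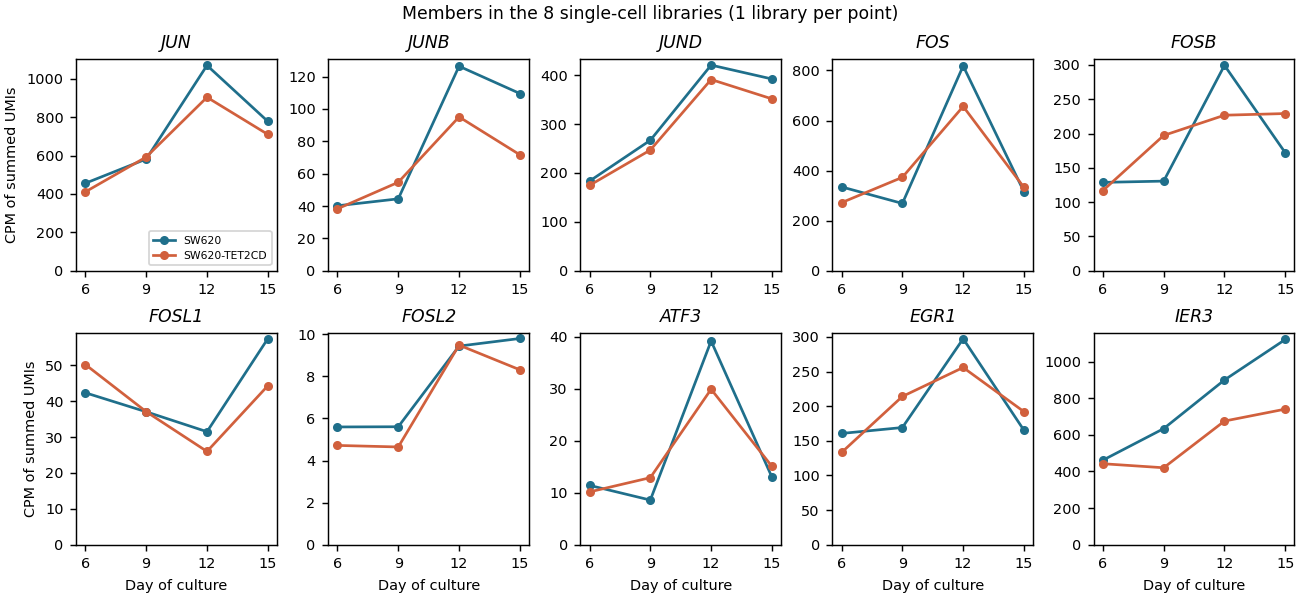
CPM of the 10 members (y axis, from 0) against the day of culture (x axis), each point being 1 single-cell library of SW620 (blue) or SW620-TET2CD (orange). FOS, ATF3 and EGR1 peak on day 12 in both lines, IER3 is highest on day 15, and FOSL1 is lowest on day 12.

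Late against early days asked whether the members changed between days 6 and 9 and days 12 and 15. The line was a block. By quasi-likelihood in edgeR, adjusted by Benjamini-Hochberg over 16993 genes, 57.7% of all genes passed an adjusted p of 0.05 (29.4% higher and 28.3% lower), and 7 of the 10 members passed, all of them higher late. The median log2 fold change of the members was 0.67, beside 0.04 over all genes tested. JUNB rose by 1.05 (standard error 0.19, adjusted p = 0.000796, edgeR), ATF3 by 1.05 (0.31, adjusted p = 0.0144), FOSL2 by 0.74 (0.13, adjusted p = 0.000688) and JUND by 0.73 (0.15, adjusted p = 0.00243) on the log2 scale. IER3 rose by 0.69 (0.15, adjusted p = 0.00305, edgeR), JUN by 0.65 (0.16, adjusted p = 0.00653) and FOSB by 0.58 (0.19, adjusted p = 0.0211). FOS (0.64, standard error 0.28, adjusted p = 0.0732), EGR1 (0.31, 0.19, adjusted p = 0.188) and FOSL1 (-0.18, 0.24, adjusted p = 0.543) did not pass in edgeR. Leaving out 1 library gave 6 to 9 members, where 47.4% to 59.9% of all genes passed. FOSB was lost without SW620 of day 6, 9 or 12 and without SW620-TET2CD of day 6, FOS was gained without either library of day 15, and FOSL1, lower late, without SW620 of day 15. Without both libraries of day 12, 4 members passed, namely JUNB, JUND, FOSL2 and IER3, where 58.9% of all genes did, and the log2 fold change of ATF3 was 0.28 and that of FOS -0.05. With upper-quartile factors in place of TMM the median over all genes moved to 0.21 and the share of calls that were higher from 51.0% to 63.4%, and the log2 fold changes of the 7 members then ran from 0.75 to 1.23. The G2/M list, 10 genes of dividing cells, moved with the same days, and all 10 were lower late with a median log2 fold change of -2.61. In cells under the limit for dividing cells alone, 6 of the 10 members and 53.6% of all genes passed, all but ATF3 of the 7 (log2 fold change 0.71).

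The days were then compared step by step. Any change over the days passed for all 10 members, against 65.6% of 17478 genes. Between days 6 and 9 none of the 10 passed in edgeR, where 0.887% of genes did (0.538% higher and 0.349% lower), although JUND (0.49, unadjusted p = 0.00937) and JUN (0.42, unadjusted p = 0.0301) were under 0.05 without adjustment. DESeq2 also called none of the members there. Leaving out SW620 or SW620-TET2CD of day 15 gave 2 calls, JUN and JUND, where 7.49% and 7.32% of all genes passed. Between days 9 and 12 the test called 42% of all genes (20.2% higher and 21.9% lower) and 8 of the 10 members, 7 of them higher. ATF3 rose by 1.56 (standard error 0.19, adjusted p = 9.04e-05, edgeR), FOS by 1.07 (0.20, adjusted p = 0.00139), JUNB by 1.01 (0.22, adjusted p = 0.00349) and FOSL2 by 0.77 (0.16, adjusted p = 0.00248). JUN rose by 0.62 (0.17, adjusted p = 0.0121, edgeR), FOSB by 0.57 (0.20, adjusted p = 0.0402) and JUND by 0.54 (0.16, adjusted p = 0.0177), while FOSL1 fell by 0.49 (0.18, adjusted p = 0.0481). EGR1 (0.41, adjusted p = 0.071) and IER3 (0.47, adjusted p = 0.0798) did not pass in edgeR. This count depended on single libraries, as did that over all genes. It was 2 without SW620 on day 9 (ATF3 and FOSL2), where 18.7% of all genes passed, and 4 without SW620 on day 12, where 19.9% did. It was 5 without SW620-TET2CD on day 9 (23.5% of all genes) or on day 12 (33% of all genes). The limits for cells mattered too, since 5 members passed with every barcode (30% of all genes) and 5 without upper limits (32.8%). Above the upper limits stood 21.4% of SW620 and 26.3% of SW620-TET2CD barcodes on day 12, against 0.849% and 11.7% on day 9. Of these, the day 12 barcodes within the mitochondrial limit held less of every member but FOSL1 than the kept cells. FOS was at 526 against 818 CPM in SW620 and at 414 against 656 CPM in SW620-TET2CD. The limits thus raised the day 12 CPM of the members other than FOSL1. With upper-quartile factors the share of calls that were higher went from 48.0% to 65.2% and the median over all genes from 0.02 to 0.20.

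From day 12 to day 15, 13% of genes (6.56% higher and 6.4% lower) and 4 of the 10 members passed. ATF3 fell by 1.27 (standard error 0.19, adjusted p = 0.0028, edgeR), FOS by 1.15 (0.20, adjusted p = 0.00582) and EGR1 by 0.61 (0.17, adjusted p = 0.0372), and FOSL1 rose by 0.86 (0.18, adjusted p = 0.0141). The other 6 members, among them JUN (-0.37, adjusted p = 0.164, edgeR) and FOSB (-0.38, adjusted p = 0.23), did not pass. Without SW620-TET2CD on day 12 the calls were ATF3 and FOS, where 1.48% of all genes passed. Fewer than 4 members also passed without the line as a block, where 2.91% of all genes did. Against day 6, day 15 was higher for 6 members, where 63.2% of all genes passed (32.3% higher and 30.9% lower). They were JUNB (1.09, standard error 0.22), JUND (0.94, 0.16), IER3 (0.89, 0.20), FOSL2 (0.70, 0.16), JUN (0.66, 0.17) and FOSB (0.57, 0.20), and without SW620 on day 6 there were 3 calls (JUNB, JUND and FOSL2), where 48.1% of all genes passed. FOS (-0.02, standard error 0.20), EGR1 (0.16, 0.17), ATF3 (0.26, 0.19) and FOSL1 (0.01, 0.18) did not pass between these days. Across the day 15 against day 12 calls, upper-quartile factors moved the share that was higher from 50.6% to 37.8%.

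**Figure D2:**
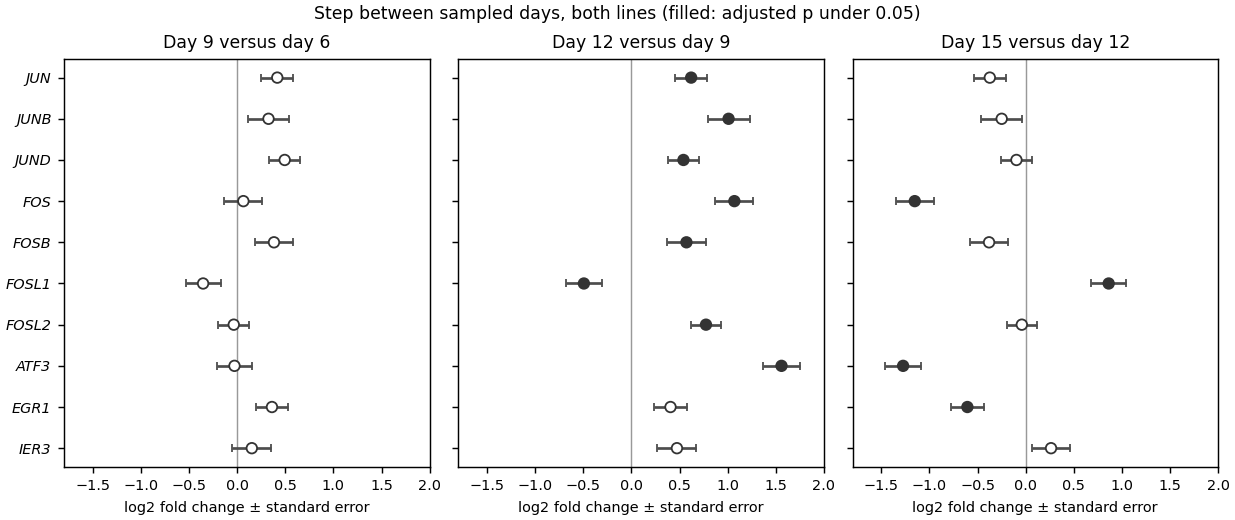
log2 fold change of each member (x axis, with standard error as bars) in 3 steps between sampled days, from the fit with the line as a block over 8 libraries. Filled points passed an adjusted p of 0.05, which held for 0 members from day 6 to 9, 8 from day 9 to 12 and 4 from day 12 to 15, where FOS and ATF3 reverse and FOSL1 rises.

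SW620-TET2CD was compared with SW620 over the 4 days, with the day as a block. None of the 10 members passed in edgeR, where 4.32% of 17478 genes did (2.48% higher and 1.84% lower). The number of genes at an unadjusted p under 0.05 was 2595. IER3 came nearest, at -0.52 on the log2 scale (standard error 0.14, adjusted p = 0.0686, edgeR), and SW620-TET2CD had less of it on 4 of 4 days. The ratio of the lines for IER3 was 0.958 on day 6, 0.663 on day 9, 0.751 on day 12 and 0.661 on day 15. IER3 passed with DESeq2, with upper-quartile factors and without the filter on low counts, where 4.4%, 4.38% and 5.53% of all genes did. FOSL2 (-0.29, unadjusted p = 0.0224, adjusted p = 0.22, edgeR) was lower on 3 of 4 days and JUND (-0.22, adjusted p = 0.413) on 4 of 4. For FOS, FOSB, ATF3 and EGR1 the sign changed with the day. All 4 were higher in SW620-TET2CD on days 9 and 15 (FOSB 1.51-fold and 1.33-fold, ATF3 1.5-fold and 1.16-fold) and lower on days 6 and 12 (FOSB 0.907-fold and 0.757-fold). Whether the late-minus-early difference itself differed between the lines was tested as an interaction, which called none of the members and 0% of genes, with 141 genes at an unadjusted p under 0.05. DESeq2 also called none, with 120 genes at an unadjusted p under 0.05, and 15 genes were called without the filter on low counts. The smallest p among the members was that of JUNB (log2 difference -0.73, standard error 0.31, unadjusted p = 0.0427, edgeR).

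Single cells were then examined for how widely each member was detected. Cells were thinned to 3000 UMIs each, which left out 25 to 268 shallower cells per library, and intervals are exact Clopper-Pearson 95% intervals for counting error only. FOS was seen in 54.8% (53.5 to 56.1), 48.2% (47.1 to 49.4), 80.0% (78.7 to 81.3) and 51.6% (50.4 to 52.8) of SW620 cells in the order of the days. In SW620-TET2CD the shares were 49.0% (47.9 to 50), 59.8% (58.5 to 61.0), 74.9% (73.5 to 76.3) and 52.7% (51.4 to 54.0). The day 12 peak of FOS was thus also a wider detection, in at least 74.9% of cells. JUN was seen in 64.1% to 76.5% of cells on days 6 and 9 and in 80.7% to 90% on days 12 and 15. IER3 reached 85.6% (84.8 to 86.5) of SW620 cells on day 15 and 74.1% (73.0 to 75.3) of SW620-TET2CD cells. EGR1 was seen in 31.3% to 52.3% of cells and FOSB in 27.2% to 51.7%, each highest in SW620 on day 12. The scarce members were seen in few cells in any library, FOSL1 in 6.62% to 13.2%, ATF3 in 2.45% to 10.4% and FOSL2 in 1.34% to 3.28%. Cells with at least 5 of the 10 members made up 16.7% to 29.2% of a library on days 6 and 9. On day 12 they made up 58.2% in SW620 and 47.1% in SW620-TET2CD, and on day 15 they made up 36.9% and 35.4%. Averaged over the members and libraries, the share with a UMI was 37.7% after thinning and 57.8% without it. A share from free RNA could not be measured, since the libraries hold no other cell type to serve as background.

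The members were also compared with each other cell by cell. Within a library, the correlation of thinned log counts was highest for JUN with FOS (Pearson r 0.21 to 0.33 over the 8 libraries), FOS with FOSB (0.18 to 0.29), JUN with FOSB (0.19 to 0.30) and FOS with EGR1 (0.14 to 0.29). FOSL1 was at r of -0.04 to 0.05 with all members but IER3, with which it reached 0.06 to 0.13. FOSL2 was at -0.02 to 0.06 with every member. It had only 88 to 226 UMIs per library after thinning, and such sparse counts keep r near 0. ATF3 and FOSL1 were also seen in few cells, so low values of these members do not show that they varied independently. These values are descriptions over 3865 to 8069 cells of 1 library each, which share depth and handling. Across the 8 libraries, the correlation of log2 CPM was 0.98 for FOS with ATF3, 0.97 for JUN with JUND, 0.95 for JUN with JUNB and 0.93 for FOS with EGR1. FOSL1 was negative with the other members across libraries, from -0.80 with EGR1 to -0.20 with FOSL2, except for 0.07 with IER3. The libraries share lines and days, and no test was made.

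**Figure D3:**
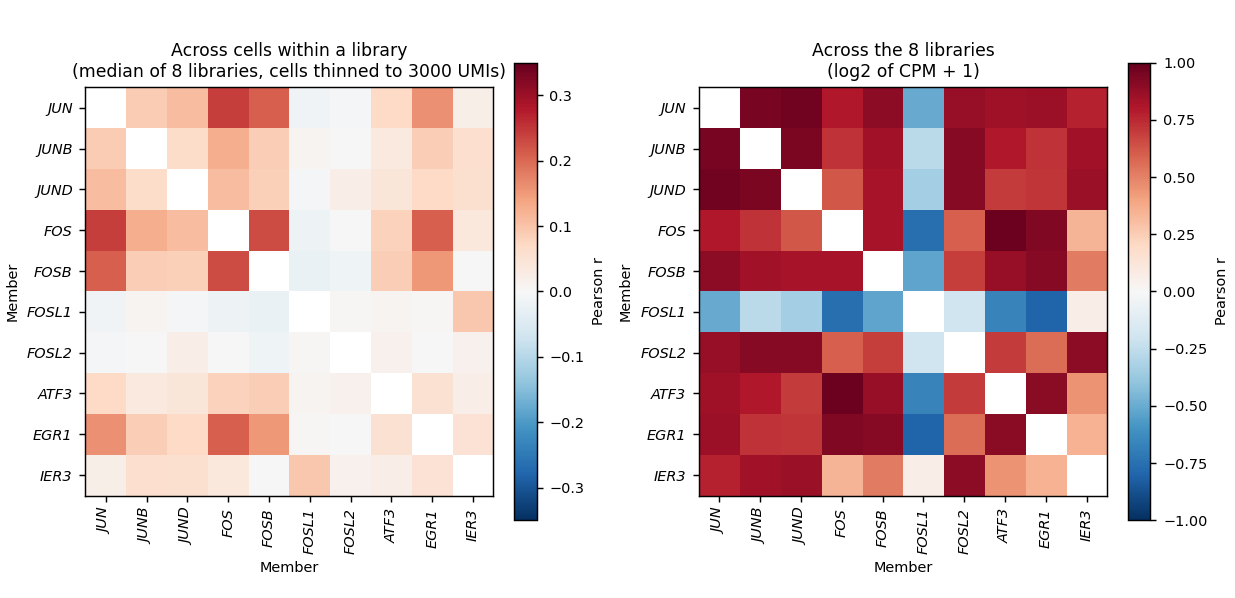
Pearson r between the members across cells (left, median of the 8 libraries, colour scale to 0.35) and across the 8 libraries (right, colour scale to 1), with members on both axes. JUN, FOS, FOSB and EGR1 form the warm block on the left, and FOSL1 is the negative row on the right except beside IER3.

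The genes whose level over the 8 libraries was most like that of each member were named among about 8716 genes that averaged 8 CPM or more. For FOS they were ATF3 (r 0.98), ACYP2 (0.98) and RHOB (0.97), and for ATF3 they were ACYP2 (0.98), FOS (0.98) and RHOB (0.97). RHOB, a small GTPase gene, is itself known as an immediate early gene. For JUN the closest were UNC93B1 (0.99), RPL3 (0.98) and NPDC1 (0.98), for JUNB MPG (0.99), GPR108 (0.98) and CLRN3 (0.97), and for JUND EEPD1 (0.99), EIF3L (0.99) and APOE (0.99). FOSL2 was most like CLIC3 (0.98), CA9 (0.98) and GDF15 (0.98), of which CA9 encodes a hypoxia-induced carbonic anhydrase. IER3 was most like TRPV2 (0.99), RPL18 (0.98) and LMF1 (0.98), FOSB like SNTB1 (0.97), ZNF561 (0.97) and C11orf95 (0.96), FOSL1 like SPATS2L (0.97), FRG1 (0.97) and ZDHHC3 (0.97), and EGR1 like MRPL20-AS1 (0.95), AL135925.1 (0.95) and HES1 (0.94). FOS and ATF3 were the members whose closest genes included another member, but FOSL2 averaged under 8 CPM and could not be named for another. These values rest on 8 libraries that share lines and days. Over the days 65.6% of 17478 genes changed, and no test of likeness was made.

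Cells with many transcripts of G2/M genes were compared with the other cells of the same library. A dividing cell held at least 10 UMIs of the G2/M list per 10000, which made 2911 to 4878 dividing cells per library on days 6 and 9 and 173 to 432 on days 12 and 15. Between 13 and 560 cells of a class lay within 20% of the limit, and dividing cells had more UMIs, with medians of 7679 to 14808 against 5750 to 13041 in the others. With the library as a block, 39.7% of 17252 genes passed (19.8% higher and 19.9% lower in dividing cells), and 8 of the 10 members did. FOSL1 was the one that was higher in dividing cells, by 0.72 (standard error 0.11, adjusted p = 0.000461, edgeR), in 8 of 8 libraries. Its CPM in dividing and other cells of SW620 was 47.3 and 36.2 on day 6, then 41.0 and 31.2, 70.6 and 29.5, and 118 and 51.6 on the later days. In SW620-TET2CD the same pairs were 55.2 and 40.9, 43.1 and 30.4, 35 and 24.7, and 93.4 and 40.0. FOSL1 was also higher, and FOS lower, in the barcodes left out above the upper limits than in the kept cells of each library. In SW620 on day 15 they were at 81.4 against 57.4 CPM and 215 against 316 CPM. The part of RNA content in the difference between dividing and other cells was not tested. ATF3 fell by 0.81 (0.09, adjusted p = 5.66e-05, edgeR) in dividing cells, FOS by 0.36 (0.07, adjusted p = 0.00261), JUNB by 0.31 (0.05, adjusted p = 0.00056) and FOSB by 0.30 (0.05, adjusted p = 0.00104). FOSL2 fell by 0.29 (0.07, adjusted p = 0.00619, edgeR), JUN by 0.21 (0.04, adjusted p = 0.00167) and JUND by 0.21 (0.05, adjusted p = 0.00476), and each of these 7 was lower in 8 of 8 libraries. EGR1 and IER3 both stood at 0.01 on the log2 scale (adjusted p = 0.918 and 0.909, edgeR) and were lower in 4 of 8 libraries. Without the library as a block no member passed, where 6.4% of all genes did. With upper-quartile factors the share of calls that were higher in dividing cells went from 49.9% to 29.0%, with the median over all genes at -0.12.

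**Figure D4:**
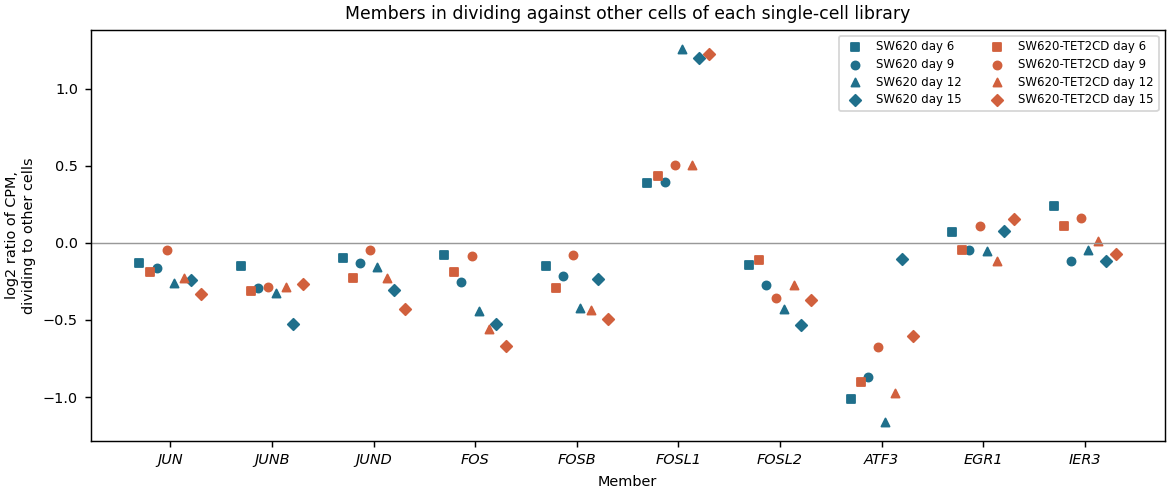
log2 ratio of the CPM in dividing to other cells (y axis) of each member in each of the 8 single-cell libraries (1 point each, colour for the line and shape for the day). All 8 libraries lie above 0 for FOSL1 and below 0 for ATF3, FOS, FOSB, FOSL2 and the JUN genes, and both sides of 0 are seen for EGR1 and IER3.

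The bulk libraries gave TPM, which is scaled for gene length, so that members can be set beside each other. FOS, IER3, JUN and EGR1 were the most abundant members of SW620, at 664, 318, 252 and 224 TPM on day 6. FOSL2 was the least abundant in all 5 libraries of SW620 and SW620-TET2CD, at 3.00 to 8.94 TPM. SW480, the line from the primary tumour, differed in its FOS relatives, with FOSL1 at 109 TPM against 33.9 in SW620 and FOSL2 at 26.6 against 3.00 on day 6. It had less JUN, 62.3 against 252 TPM, and less FOSB, 27.7 against 89.8 TPM, and IER3 was nearly level, 309 against 318 TPM. With 1 library per line these ratios, 3.21 for FOSL1, 8.88 for FOSL2, 0.247 for JUN and 0.309 for FOSB, have no replicate check.

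Location was compared on day 15, outside against inside the colonies, with the line as a block and 1 residual degree of freedom. Cells outside were those that passed a strainer after accutase, and cells inside were retained and digested further with trypsin, so location and handling cannot be told apart. The test called 0% of 17722 genes and none of the members in edgeR, with 1068 genes at an unadjusted p under 0.05, and DESeq2 called 21 genes and none of the members. The G2/M list had a median log2 fold change of 1.08 outside against inside, with none of its 10 genes passing. The part of dividing cells in the levels of the members by location was not tested. JUND was at 98.6 TPM inside and 82.8 outside in SW620, and at 149 inside and 87.0 outside in SW620-TET2CD (log2 fold change -0.57, standard error 0.15, unadjusted p = 0.0127, adjusted p = 0.772, edgeR). JUN was at 245 and 215 TPM in SW620 and at 295 and 194 in SW620-TET2CD (-0.42, standard error 0.16, unadjusted p = 0.0461, adjusted p = 0.772, edgeR). ATF3 was at 34.5 and 36.4 TPM in SW620 but at 183 and 66.2 in SW620-TET2CD, the widest gap of any member (-0.82, standard error 0.39, adjusted p = 0.772, edgeR). JUNB and FOSB were nearly level between the locations, JUNB at 62.5 and 62.7 in SW620 and 66.5 and 73.0 TPM in SW620-TET2CD, and FOSB at 39.0 and 36.0 and at 138 and 142 TPM. EGR1 was at 125 and 131 TPM in SW620 and at 167 and 213 in SW620-TET2CD. FOS was at 242 and 264 TPM in SW620 and at 469 and 397 in SW620-TET2CD. FOSL1 was at 25.8 and 32.6 TPM and at 50 and 49.0, FOSL2 at 3.67 and 5.06 and at 8.94 and 6.97, and IER3 at 355 and 391 and at 302 and 297. Without the filter on low counts JUND and ATF3 passed, where 1.5% of all genes did.

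The same libraries set the lines side by side. SW620-TET2CD had more FOSB than SW620, 3.55-fold inside and 3.95-fold outside, more ATF3, 5.30-fold and 1.82-fold, and more FOS, 1.94-fold and 1.5-fold. IER3 was lower in SW620-TET2CD, 0.852-fold inside and 0.760-fold outside. On day 15 of the single cells the ratios of the lines were 0.661 for IER3, 1.33 for FOSB, 1.16 for ATF3 and 1.05 for FOS. In both locations the bulk ratio and the single-cell ratio differed in direction for FOSL1 (1.94-fold and 1.5-fold in bulk, 0.771 in single cells), FOSL2 (2.44-fold and 1.38-fold, 0.848), JUND (1.51-fold and 1.05-fold, 0.896) and JUNB (1.06-fold and 1.16-fold, 0.654). With 1 library per line and location these ratios were not tested, and if the bulk SW620 cells lacked the vector, it and TET2CD cannot be told apart. From day 6 to day 15 in SW620, bulk TPM of FOS was 0.364-fold inside and 0.398-fold outside, of FOSB 0.434-fold and 0.401-fold, of JUNB 0.519-fold and 0.521-fold and of EGR1 0.556-fold and 0.586-fold. In the single-cell sums of SW620 the same days gave 2.73-fold for JUNB, 1.33-fold for FOSB, 1.03-fold for EGR1 and 0.942-fold for FOS. JUN and JUND were at 0.972-fold and 0.851-fold and at 0.978-fold and 0.822-fold in bulk, against 1.71-fold and 2.14-fold in single cells. FOSL1 was at 0.760-fold and 0.961-fold in bulk, against 1.36-fold in single cells. JUNB, FOSB, JUN, JUND, FOSL1 and EGR1 were thus lower in TPM on day 15 in bulk and higher in CPM in single cells. These scales differ, since CPM is not scaled for gene length. EGR1 hardly differed in single cells. In bulk, JUN (0.972-fold) and JUND (0.978-fold) inside and FOSL1 outside (0.961-fold) hardly differed. The direction of JUND inside depended on the scale. It had 2324 of 25.2e6 expected counts inside on day 15 and 1405 of 16.5e6 on day 6, so its share of the counts was higher on day 15. How many of all genes differed in direction between the assays was not counted. FOS was lower in both assays, and the other members were higher in both, IER3 at 1.12-fold and 1.23-fold in bulk against 2.43-fold in single cells, ATF3 at 1.18-fold and 1.25-fold against 1.14-fold, and FOSL2 at 1.22-fold and 1.69-fold against 1.75-fold. The bulk libraries of these days differ in handling as well, whole culture against separated cells, and the part of this in the difference was not tested.

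**Figure D5:**
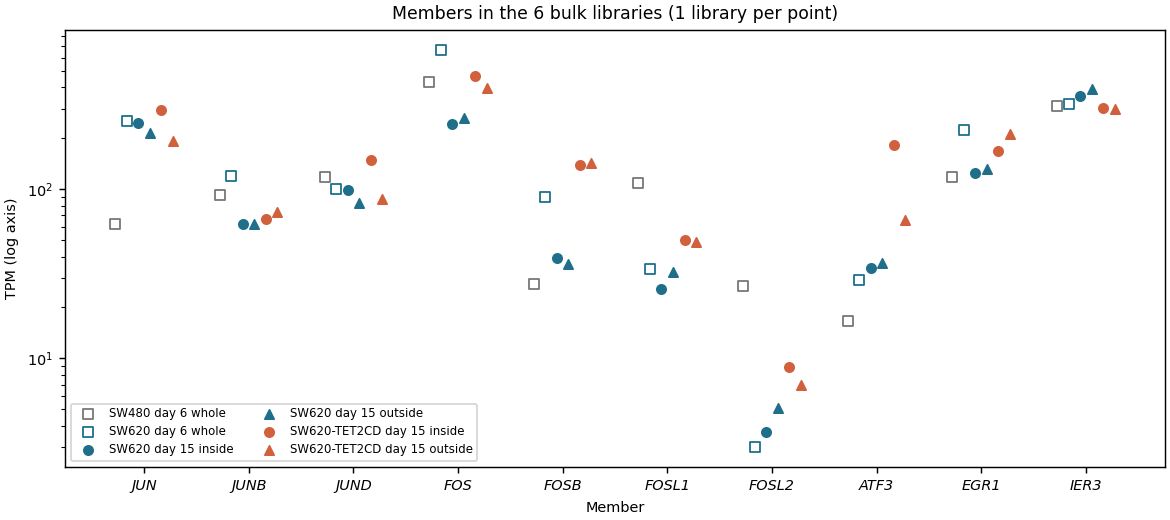
TPM of each member (y axis, log scale) in the 6 bulk libraries, 1 point each, with open squares for whole cultures on day 6, circles for cells inside and triangles for cells outside colonies on day 15. SW480 stands apart for JUN, FOSL1 and FOSL2, and SW620-TET2CD inside colonies is highest for ATF3 at 183 TPM.

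Other genes of the pathway were taken from lists and counted in the late against early fit, in which 29.4% of genes were higher and 28.3% lower. The lists were chosen with earlier results of these data known, so the counts here and in the next paragraph are descriptions. Of the other immediate early genes, 15 of 21 tested rose and none fell, with a median log2 fold change of 0.92. EGR3, an EGR1 relative, rose by 2.28 (standard error 0.19, adjusted p = 1.34e-05, edgeR), from 2.33 to 4.15 CPM on days 6 and 9 to 14.1 to 20.7 CPM on days 12 and 15. ZFP36, whose protein destabilises AU-rich mRNAs, rose by 1.75 and NR4A1, an orphan nuclear receptor gene, by 1.54. Of the MAPK feedback inhibitors, 8 of 11 rose and none fell, with a median of 0.87. DUSP5 and DUSP6, phosphatases of ERK, rose by 3.08 and 1.60, and SPRY4, a brake on receptor signalling, by 1.58. DUSP6 went from 53.0 to 76.7 CPM on days 6 and 9 to 188 to 224 CPM on days 12 and 15. Of the kinases and ternary complex factors upstream, 6 of 17 were higher and 1 lower, with a median of 0.10. ELK4, a partner of serum response factor, rose by 0.82, BRAF by 0.73 and MAPK14, the p38 kinase gene, by 0.51. Of the other AP-1 and CREB family leucine zipper genes, 7 of 16 rose and 3 fell (median 0.37), led by MAFF (1.31), JDP2 (0.94), which encodes a repressor of AP-1, and DDIT3 (0.80), a stress factor. Of 10 tested genes known as AP-1 targets, 4 rose and 1 fell (median 0.35). The list held 15 genes. MMP1, MMP3, MMP9, MMP10 and MMP13 were nearly absent, at 0.0415 CPM or less in every library, and were not tested. PLAUR, the urokinase receptor gene, rose by 3.07, and the EGF receptor ligand genes AREG and HBEGF by 1.64 and 1.39. PLAUR was at 2.72 to 5.03 CPM on days 6 and 9 and reached 79.0 CPM in SW620 and 33.5 CPM in SW620-TET2CD on day 15.

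The lists were also counted in other comparisons, each beside the share over all genes. From day 9 to day 12, where 20.2% of all genes were higher and 21.9% lower, 16 of the 21 other immediate early genes were higher and none lower, and from day 12 to day 15, where 6.56% were higher and 6.4% lower, 2 were higher and 10 lower. The MAPK feedback inhibitors had 8 of 11 higher in the first of these steps, and 3 higher and 3 lower in the second. The AP-1 targets had 3 higher and 1 lower in the first step, and 5 higher and 1 lower in the second. Upstream kinases and ternary complex factors had 3 higher and 1 lower, then 2 higher and none lower, and the other leucine zipper genes 3 higher and 2 lower, then 1 higher and none lower. Between the lines, where 2.48% of all genes were higher and 1.84% lower, 1 of the 21 other immediate early genes was lower in SW620-TET2CD, 1 of 11 feedback inhibitors and 1 of 16 leucine zipper genes were higher, 2 AP-1 targets were higher and 1 lower, and none of the 17 upstream genes passed. In dividing cells, where 19.8% of all genes were higher and 19.9% lower, 11 of the 21 other immediate early genes were lower and 2 higher. There, 4 of 11 feedback inhibitors and 3 of 10 AP-1 targets were lower and none higher. Of the 17 upstream genes 7 were higher and 2 lower, and of the 16 leucine zipper genes 3 were higher and 2 lower.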

How the data were processed

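Single-cell RNA-seq of 8 libraries and bulk RNA-seq of 6 libraries were analysed. Per the labels and the methods of the study, colonies were dissociated, loaded on a 10x Genomics 3′ kit and processed with Cell Ranger 4.0 against GRCh38, and the authors deposited UMI counts per gene and barcode. For bulk samples the authors deposited gene tables from RSEM, with an expected count and TPM. The submitters' processing notes also name Bowtie, RSEM and mm10 without a role, although the gene identifiers of the bulk tables are human, and tool versions were not given in the sources used here. Reads were not aligned again.

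Cells were kept with the limits of the study, which left more cells than the study states, and doublets were not called. An alternative without the 8% of deepest cells stood in for that. UMIs were summed per library. Two-sided quasi-likelihood tests were run in edgeR 4.0.16 after filterByExpr and TMM scaling, adjusted by Benjamini-Hochberg over all genes tested and called at 0.05, with DESeq2 1.42.0 as an alternative (R 4.3.3). Expected counts were rounded, and per bulk library they summed to 16.5e6 to 25.8e6. The scripts were tested on simulated data. Sequences were searched in the RefSeq promoter table, and gene positions are those of GENCODE 44. All 10 members were named. Of each other list, the 3 genes with the largest absolute change among those past the threshold in the late against early test and averaging 8 CPM or more were named, and for each member the 3 genes with the highest correlation over the libraries. Members and lists were chosen with earlier results of these data known. Cells are not replicates, and with 1 library per condition p-values rest on days and lines.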

Additional observations from a re-analysis of the deposited data

Results flagged for a closer look

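In bulk cells of day 15, the log2 ratio of outside to inside, from CPM of scaled counts plus 1, had opposite signs in the 2 lines for 5 members, and these differences were not tested. How many of all genes had opposite signs was not counted, so 5 members cannot be read as a trait of this set. The log2 ratio of outside to inside in SW620-TET2CD minus that in SW620 was -1.59 for ATF3, -0.89 for FOSL2, -0.53 for FOSL1, -0.31 for IER3 and -0.27 for FOS, each from 1 library per line and location. For ATF3 the ratio in SW620 was 0.0026, close to no difference (37.9 CPM inside and 38.0 outside). FOSB had ratios of the same sign on this scale (-0.07 and -0.18), although its TPM was lower outside in SW620 and higher outside in SW620-TET2CD.

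Barcodes left out as cells, though included in 2 of the alternatives, because over 10% of their UMIs were mitochondrial held a higher level of 4 members on days 6 and 9 than the kept cells of the same library. The median ratio over the 4 libraries of those days was 1.84 for ATF3, 1.55 for FOSB, 1.19 for JUN and 1.17 for EGR1, with all 4 libraries above 1. How many of all genes were higher in all 4 of these libraries was not counted. The medians were 1.19 for JUNB (0.998 to 1.38), 1.15 for FOS (0.891 to 1.37), 1.01 for FOSL2 (0.770 to 1.66) and 0.970 for JUND (0.865 to 1.03), with libraries on both sides of 1. FOSL1 and IER3 were lower in these barcodes in all 4 libraries, with medians of 0.675 and 0.908. On days 12 and 15 the median ratios were 0.730 for ATF3, 0.972 for FOSB, 0.851 for JUN and 0.882 for EGR1. For the other members they were 0.773 for JUNB, 0.765 for JUND, 0.738 for FOS, 0.777 for FOSL1, 0.771 for FOSL2 and 0.856 for IER3. The part of cell damage in these levels was not tested.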

How the results depend on the processing

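Each test was repeated with DESeq2, without the filter on low counts, without the block, with upper-quartile factors, on every barcode, with no upper limits, with a mitochondrial limit of 20%, leaving out the cells of highest UMIs, a limit of 20 for dividing cells, day as a number or days 6 and 9 only where these apply, and each library left out in turn. Members called in a test of fold change kept their sign in all of them. Members not called changed sign in 17 of 36 values for dividing cells, 17 of 68 from day 6 to 15, 3 of 40 for location, 16 of 160 for the interaction, 13 of 170 from day 6 to 9, 12 of 170 for the line, 8 of 102 from day 12 to 15, 3 of 57 for late against early days and 0 of 34 from day 9 to 12, and a sign of theirs was not relied on. In bulk, a fit with 1 library left out had no residual degree of freedom with the line as a block, so those fits also dropped the block, a pair of choices added later, and 14 of 40 values changed sign there. Between the lines, 1 member (IER3) passed with DESeq2, without the filter and with upper-quartile factors (4.4%, 5.53% and 4.38% of all genes), against 0 (4.32%). From day 9 to 12, 5 members passed with every barcode (30% of all genes) and 5 without upper limits (32.8%), against 8 (42%), and leaving out 1 library gave 2 to 10 (18.7% to 50.7%). From day 12 to 15, 2 passed without the block (2.91%), against 4 (13%), and leaving out 1 library gave 2 to 6 (1.48% to 17.7%). From day 6 to 15 leaving out 1 library gave 3 to 6 (48.1% to 62.9%), and from day 6 to 9 it gave 0 to 2 (0.0055% to 7.49%). For dividing cells, none (0) passed without the block (6.4%), against 8 (39.7%), and EGR1 was lower with every barcode (log2 fold change -0.093). In bulk, 2 passed without the filter (1.5%), against 0 (0%). Late against early, 5 passed with day as a number (58.1%), without FOSB and ATF3, and 8 with DESeq2 (57.7%), without the filter (39.3%) and with upper-quartile factors (59.6%), FOS being added, against 7 (57.7%), and leaving out 1 library gave 6 to 9 (47.4% to 59.9%). There, 4 passed without both day 12 libraries (58.9%), an alternative added after the data were seen, as was the one on cells under the G2/M limit. The cause of these changes was not tested. The mean share of cells with a UMI was 37.7%, and it was 30.3% with 2000 UMIs, 57.8% without thinning and 37.9% without the cells of highest UMIs. Over all genes the calls fell without the block from 755 to 46 between the lines, from 6849 to 978 for dividing cells, from 2266 to 508 from day 12 to 15 and from 155 to 0 from day 6 to 9, where DESeq2 gave 396. Without the filter they were 1489 between the lines, 978 from day 6 to 9, and 472 in bulk against 0.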
